A study of Mus with 2 samples.

Results

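Oxidative phosphorylation is the chain of reactions by which mitochondria pass electrons from NADH and succinate to oxygen and use the proton gradient that results to make ATP. It is carried out by 4 respiratory complexes (I to IV) and the ATP synthase (complex V). Complex II is encoded wholly in the nucleus, whereas the other complexes join subunits from the nucleus with subunits from the mitochondrial genome. In the kidney, tubule segments that reabsorb salt by active transport are known for their many mitochondria, and nephron progenitors are known to rely largely on glycolysis.

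The genes described here are the subunits and named assembly factors of this system. They were chosen by symbol alone: mitochondrial genes beginning mt-Nd, mt-Co, mt-Cytb or mt-Atp, nuclear genes beginning Nduf, Uqcr, Cox4 to Cox8 or Atp5, and Sdha, Sdhb, Sdhc and Sdhd. The rule found 105 of 28693 features, of which 92 are nuclear and 13 mitochondrial. Complex I contributed 36 nuclear subunits, 7 mitochondrial subunits and 7 assembly factors (the Ndufaf genes). Complex II contributed 4 genes, complex III 8 nuclear genes and mt-Cytb, complex IV 20 nuclear and 3 mitochondrial genes, and complex V 17 nuclear and 2 mitochondrial genes. Ndufa4 and its paralog Ndufa4l2 were placed with complex IV, where the Ndufa4 protein is now known to sit. Atp5s and Atp5sl were kept with complex V for their symbols; the product of Atp5sl is known as an assembly factor of complex I.

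Their RNA was counted in single cells from 2 libraries of newborn (P0) mouse kidney with the genotype Rbpj c/- ; Foxd1cre/+. Foxd1Cre deletes the conditional Rbpj allele in the renal interstitium, and the Rbpj protein carries Notch signals to the genes they control. The design also names control kidneys (Rbpj c/+ ; Foxd1cre/+), which were not analysed here, so every comparison is between cell types within mutant kidneys and none measures the deletion. The labels do not say whether the libraries came from separate animals. The overall difference between the libraries was fitted as a block. The p-values measure only how far differences between types varied from one library to the other, which may be technical.

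Barcodes with at least 2000 UMIs (unique molecular identifiers, each counted as 1 RNA molecule) and at most 20% mitochondrial UMIs were kept, 6662 in library 1 and 5644 in library 2, out of 163405630 and 135436576 UMIs in all. The libraries shared 8 barcodes. Cells were assigned to types by lists of marker genes that hold none of the 105 genes, and a type is called "-like" since it rests on markers alone. The 12 types with at least 20 cells in each library held 107 to 955 cells per library, with median depths from 4370.5 to 23049 UMIs per cell. The 10 genes that led each type held 2 to 6 of its own markers: Slc34a1 and Spp2 in proximal tubule-like cells, Slc12a1 and Umod in loop of Henle-like cells, Slc12a3 in distal tubule-like cells, and Six2 and Cited1 in nephron progenitor-like cells. Of 10435 cells that also had a name from clustering, 93.2% had the same name. Clusters were named with the same marker lists, so this agreement is no independent support for the types. Nor are markers among the leading genes, since the cells were gated on them. Agreement was lowest in the mural-like type, in which 220 of 339 cells lay in clusters named stroma-like, followed by loop of Henle-like cells, with 98 in clusters named early nephron-like and 409 in their own, and distal tubule-like cells, with 36 and 183. The gates left 1034 and 837 cells unassigned, and these were left out. Distal tubule-like cells also carried markers of the ureteric epithelium list at 1307 and 921 UMIs per 1000000 UMIs (CPM), against 1943 and 1974 CPM in ureteric epithelium-like cells. The 10 leading genes of distal tubule-like cells also held S100g, Atp6v1g3 and Rhbg, which are not on the distal tubule list. Whether this type is a mix of cell types was not tested.

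Transcripts of the respiratory chain took up the largest share of RNA in distal tubule-like cells and smaller shares in the other tubule segments. The 13 mitochondrial genes made up 10.6% and 11.7% of the UMIs of distal tubule-like cells in libraries 1 and 2. They made up 7.96% and 8.94% in proximal tubule-like cells and 8.09% and 8.45% in loop of Henle-like cells. Ureteric epithelium-like cells, whose marker list includes the collecting duct gene Aqp2 beside Ret and Wnt11, held 6.97% and 7.94%. Nephron progenitor-like cells held 5.70% and 6.13%. The ranges of proximal tubule-like and loop of Henle-like cells overlapped, and both lay above those of nephron progenitor-like cells. Podocyte-like cells, the filtering cells of the glomerulus, held 4.11% and 4.18%, the lowest of the nephron types in each library, below the 4.996% and 5.15% of early nephron-like cells. Stroma-like cells held 5.30% and 5.67%, endothelial-like cells 5.35% and 5.76% and mural-like cells 5.17% and 6.28%, which overlapped each other, and immune-like cells held 4.86% and 5.25%. Free RNA, read from barcodes with 10 to 100 UMIs, held 5.54% and 6.47%.

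The 92 nuclear genes gave a similar order with a smaller gap between libraries. They made up 5.82% and 5.86% of UMIs in distal tubule-like cells, 4.04% and 4.03% in loop of Henle-like cells, 3.62% and 3.68% in proximal tubule-like cells and 3.01% and 3.06% in ureteric epithelium-like cells. Distal tubule-like cells stood at 5.84% ± 0.031 (SD, n = 2) and nephron progenitor-like cells at 2.42% ± 0.011 (SD, n = 2). These 4 types did not overlap one another or the remaining types. Early nephron-like cells held 2.55% and 2.64%, nephron progenitor-like cells 2.43% and 2.41%, podocyte-like cells 2.33% and 2.44% and stroma-like cells 2.25% and 2.35%. Mural-like cells held 2.50% and 2.50%, endothelial-like cells 2.22% and 2.28% and immune-like cells 2.13% and 2.16%. Podocyte-like cells overlapped with nephron progenitor-like and stroma-like cells, and stroma-like with endothelial-like cells, whereas the other neighbours in this lower part of the order did not overlap. Free RNA held 2.33% and 2.31%. Of the 92 nuclear genes, 72 were highest in distal tubule-like cells in both libraries, as were 12 of the 13 mitochondrial genes. The nuclear genes that were highest elsewhere in both libraries were few: 6 in proximal tubule-like cells (Cox7a1, Ndufv3, Ndufa6, Ndufb4, Ndufaf6 and Ndufaf7), 3 in mural-like cells (Ndufa4l2, Cox4i2 and Cox8b), 2 in nephron progenitor-like cells (Cox7a2l and Ndufaf1), and 1 each in loop of Henle-like (Ndufaf5), podocyte-like (Cox7b2), immune-like (Cox6a2) and erythroid-like cells (Cox6b2).

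**Figure D1:**
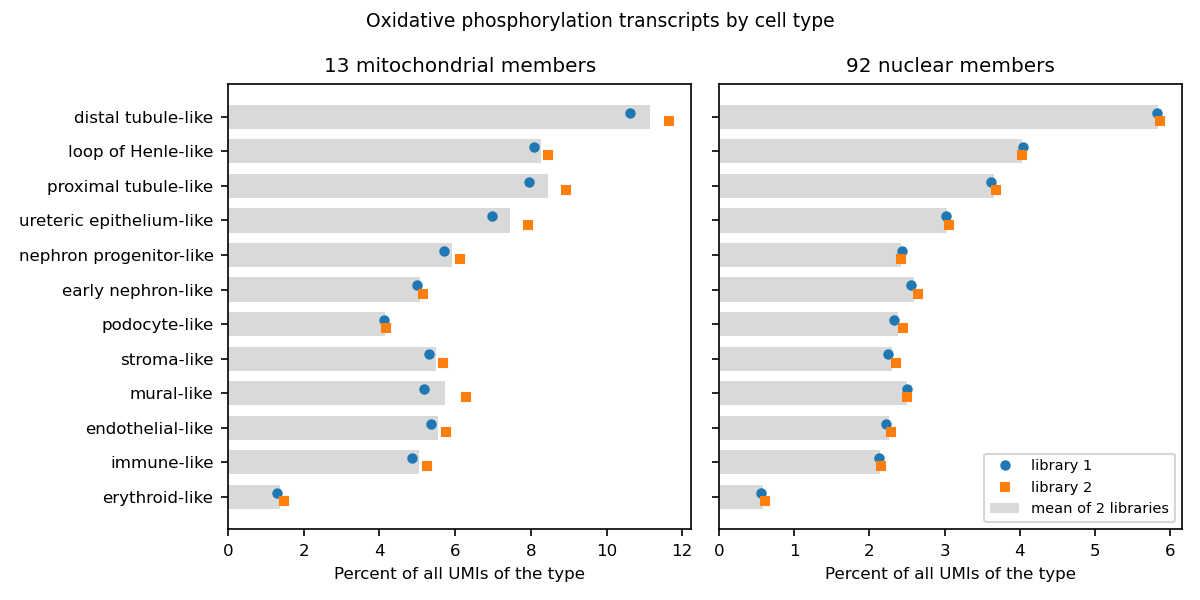
Share of each cell type's UMIs taken by the 13 mitochondrial genes (left) and the 92 nuclear genes (right), in percent; points are the libraries and bars their mean. Distal tubule-like cells are highest in both panels, at 10.6% and 11.7% for the mitochondrial and 5.82% and 5.86% for the nuclear genes in libraries 1 and 2, and erythroid-like cells are lowest.

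Erythroid-like cells stood lowest on this scale, with 1.30% and 1.47% of UMIs from mitochondrial genes and 0.554% and 0.614% from nuclear genes. Erythroid markers, chiefly globins, made up 76.6% and 74.0% of their UMIs. Of the UMIs left without those markers, mitochondrial genes made up 5.53% and 5.67% and nuclear genes 2.37% and 2.36%. Free RNA held 5.54% and 6.47% from mitochondrial and 2.33% and 2.31% from nuclear genes, and its part in these values was not tested. The median single erythroid-like cell lay below the pooled shares, with 0.521% and 0.660% mitochondrial UMIs and 0.275% and 0.308% from nuclear genes. A share of a cell's UMIs cannot tell fewer respiratory transcripts from more of another transcript, and this holds for every level given here.

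The balance between the genomes was not the same in every type. Podocyte-like cells held 1.77 and 1.71 mitochondrial UMIs per nuclear UMI of the chain, the lowest of the 12 types in each library. Distal tubule-like cells, with the most of both, held 1.82 and 1.99, early nephron-like cells 1.96 and 1.95 and loop of Henle-like cells 2.01 and 2.09. Nephron progenitor-like cells held 2.35 and 2.54 and endothelial-like cells 2.41 and 2.52. Across the 12 types the mitochondrial share went with the nuclear share, with Pearson's r of 0.97 in library 1 and 0.95 in library 2 and Spearman's rho of 0.81 and 0.78. Without erythroid-like cells r was 0.96 and 0.93. The points share a library and its depth, and these values only describe them.

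Single tubule cells also differed more from one another than single progenitors did. Between the lower and the upper quartile, loop of Henle-like cells held nuclear shares of 2.78 to 5.13% in library 1 and 2.86 to 4.86% in library 2. The same quartiles of nephron progenitor-like cells spanned 2.25 to 2.66% in library 1 and 2.19 to 2.67% in library 2. For the mitochondrial genes the quartiles were 6.10 to 11.3% in library 1 and 6.05 to 11.9% in library 2 in loop of Henle-like cells and 5.07 to 6.39% in library 1 and 5.53 to 6.95% in library 2 in nephron progenitor-like cells. Loop of Henle-like cells were deeper, with medians of 19466.5 and 17589 UMIs against 15118 and 14179, and the part of depth in the spread was not tested.

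The limit of 20% mitochondrial UMIs acts on the quantity measured here. It removed 248 and 273 barcodes, and those that passed a type's gate fell mostly in the types with the highest shares: 53 and 58 proximal tubule-like, 29 and 24 loop of Henle-like, 25 and 29 ureteric epithelium-like and 17 and 31 distal tubule-like. With no limit, an alternative added after the data were seen, the mean share over libraries was 11.9% in distal tubule-like and 9.19% in proximal tubule-like cells. With a limit of 10% the mean was 7.0% in proximal tubule-like and 7.05% in distal tubule-like cells. A high mitochondrial share is also a common sign of damaged cells, and whether the barcodes near the limit were damaged was not tested.

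The higher level in tubule types ran through all 5 complexes. Summed over its genes, complex II, the succinate dehydrogenase that also works in the tricarboxylic acid cycle, stood at 448 and 420.4 CPM in nephron progenitor-like cells, 745 and 715 CPM in proximal tubule-like cells and 1124 and 1096 CPM in distal tubule-like cells. The nuclear genes of complex III, which passes electrons to cytochrome c, stood at 2328 and 2353 CPM in nephron progenitor-like and 6234 and 6309.8 CPM in distal tubule-like cells. The 36 nuclear subunits of complex I, the entry point for NADH, stood at 7219 and 7063 CPM, 10734 and 10753 CPM and 14962 and 15127 CPM in nephron progenitor-like, proximal tubule-like and distal tubule-like cells. The libraries differed by far less than these types did. The 7 assembly factors of complex I differed least among the nuclear groups, with 208 and 189.7 CPM in nephron progenitor-like, 253 and 223 CPM in proximal tubule-like and 331 and 321 CPM in distal tubule-like cells.

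**Figure D2:**
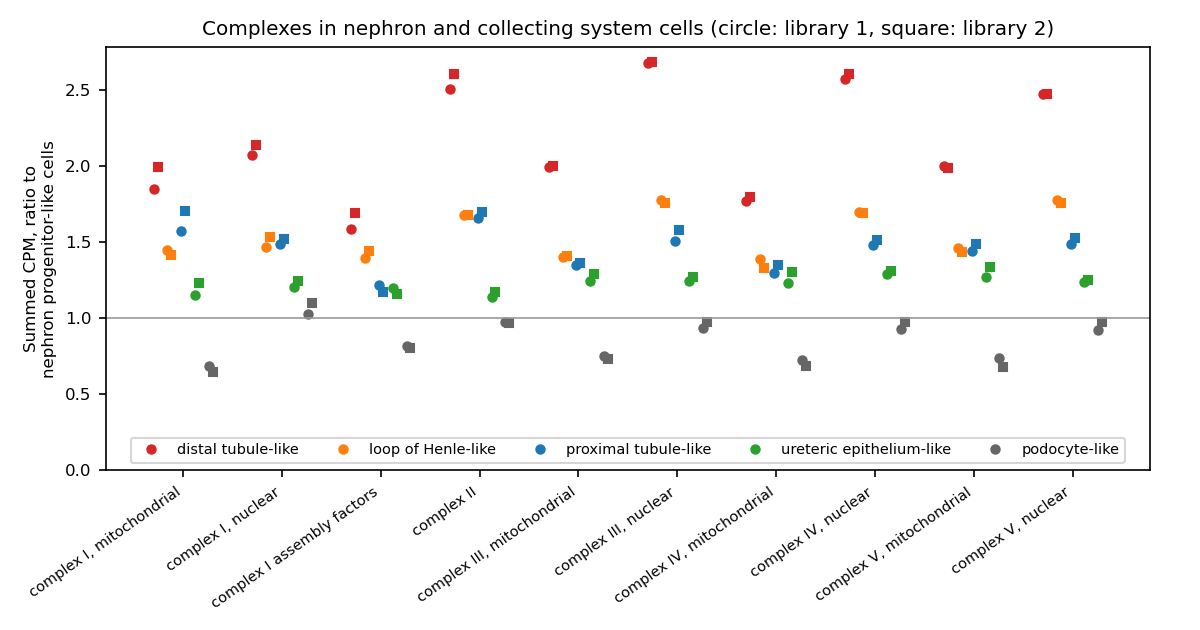
Summed CPM of each complex in 5 epithelial types divided by the value in nephron progenitor-like cells of the same library (linear axis from 0; circles library 1, squares library 2). Every group of genes is highest in distal tubule-like cells, and in podocyte-like cells the mitochondrial groups lie below 1 while the nuclear subunits of complex I lie just above it.

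Proximal tubule-like cells, which reabsorb most of the filtered solutes, held more RNA of nearly the whole chain than nephron progenitor-like cells. Of the 89 nuclear genes that passed the filter on low counts, 76 were higher and 3 lower (adjusted p under 0.05, edgeR's quasi-likelihood test on UMIs summed per library and type), and all 13 mitochondrial genes were higher. In that comparison 67.4% of all 15625 genes tested were called, 32.9% as higher and 34.5% as lower. The median log2 fold change was 0.64 over the nuclear and 0.58 over the mitochondrial genes, against -0.038 over all genes tested. By complex, 34 of 36 nuclear subunits of complex I, 4 of 4 of complex II, 7 of 8 of complex III, 12 of 17 tested of complex IV and 16 of 17 of complex V were higher. Of the 7 assembly factors of complex I 3 were called, Ndufaf3, Ndufaf6 and Ndufaf7, all higher. The filter on low counts left out 3 nuclear genes, Cox7b2, Cox8b and Cox8c, in every comparison.

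The largest difference belonged to Cox7a1, the form of a complex IV subunit best known from heart and skeletal muscle. It stood at 0.510 and 0.478 CPM in nephron progenitor-like cells, from 12 and 10 UMIs, and at 12.1 and 18.7 CPM in proximal tubule-like cells, from 202 and 263 UMIs (log2 fold change 4.92 ± 0.33, adjusted p = 5.7e-11; errors of fold changes are SE throughout). The difference was 4.80 without library 1 and 4.10 without library 2; such values are ratios of log2 CPM within the library that is left, with a prior count of 2 that draws sparse genes toward 0, and have no test. Uqcr10, a small subunit of complex III, stood at 268 and 271 CPM in nephron progenitor-like and 628 and 703 CPM in proximal tubule-like cells (1.33 ± 0.07, adjusted p = 1.3e-12). Ndufv3, an accessory subunit of the NADH-binding part of complex I, stood at 86.0 and 85.3 CPM and 205 and 211 CPM (1.30 ± 0.07, adjusted p = 1.9e-12). In none of these genes did the libraries of the types overlap. Cox6a1, the widespread form of its subunit, was higher by 1.27 ± 0.07, adjusted p = 1.8e-12.

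The 3 genes that were lower in proximal tubule-like cells were all in complex IV. Cox4i2, the alternative form of subunit 4 known from lung and from oxygen-sensing vessels, stood at 1.91 and 1.20 CPM in nephron progenitor-like and 0.420 and 0.0711 CPM in proximal tubule-like cells (-2.52 ± 0.56, adjusted p = 5.5e-04), the latter from 7 and 1 UMIs. The difference was -2.30 without library 1 and -1.73 without library 2. Its call was lost when every cell was thinned to 2000 UMIs (-2.22, adjusted p = 0.41). Cox6b2, the form of subunit 6B known from testis, stood at 49.6 and 47.5 CPM and 14.6 and 14.7 CPM (-1.71 ± 0.10, adjusted p = 8.3e-12). Cox7a2l, a factor that joins complexes III and IV into supercomplexes, stood at 605 and 637 CPM and 356 and 369 CPM (-0.75 ± 0.07, adjusted p = 8.6e-09).

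Loop of Henle-like cells, which take up salt through the Slc12a1 cotransporter, differed from nephron progenitor-like cells in the same direction for most of the chain. Of 89 nuclear genes 77 were higher and 3 lower, and 11 of 13 mitochondrial genes were higher, where 61.5% of all genes were called, 30.7% as higher and 30.8% as lower. The median log2 fold change was 0.53 over the nuclear and 0.40 over the mitochondrial genes, against -0.012 over all genes. The mitochondrial genes that did not pass were mt-Co3 and mt-Nd5. Cox7a1 again differed most, at 7.16 and 9.39 CPM in loop of Henle-like cells (3.88 ± 0.35, adjusted p = 1.0e-08), or 3.65 without library 1 and 3.22 without library 2. Genes for the c subunit of the ATP synthase, which forms its proton-driven ring, were among the highest: Atp5g1 stood at 544 and 453 CPM in nephron progenitor-like and 1511 and 1091 CPM in loop of Henle-like cells (1.24 ± 0.09, adjusted p = 2.8e-10), and Atp5g3 differed by 1.19 ± 0.07, adjusted p = 1.1e-11. Uqcr10 differed by 1.22 ± 0.07, adjusted p = 8.2e-12. The lower genes were Cox7a2l (-0.61 ± 0.07, adjusted p = 2.7e-07), Cox6b2 (-0.31 ± 0.09, adjusted p = 0.0069) and the assembly factor Ndufaf1 (-0.30 ± 0.12, adjusted p = 0.038). The call of Ndufaf1 was lost with DESeq2 size factors (adjusted p = 0.087) and without the library as a block (adjusted p = 0.076), and after thinning it was 0.019; that of Cox6b2 was lost after thinning (adjusted p = 0.22). The mitochondrial difference depended on the mitochondrial limit: at 10%, 1 gene was called higher and 1 lower, and the median fell to 0.026.

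Distal tubule-like cells, gated on markers that include the salt cotransporter gene Slc12a3, held more respiratory RNA than loop of Henle-like cells. This comparison was added after the shares per type had been seen, and the order of those shares is no independent support for it. Among 89 nuclear genes 75 were higher and 1 lower, and all 13 mitochondrial genes were higher, where 23.6% of all genes were called, 11.6% as higher and 12% as lower. The median log2 fold change was 0.48 over the nuclear and 0.43 over the mitochondrial genes, against -0.026 over all genes. Ndufa1, a small subunit needed early in the assembly of complex I, stood at 184 and 206 CPM in loop of Henle-like and 377 and 495 CPM in distal tubule-like cells (1.14 ± 0.10, adjusted p = 3.3e-08). Uqcrq of complex III stood at 464 and 491 CPM and 791 and 898 CPM (0.80 ± 0.08, adjusted p = 4.4e-07). In complex IV, Cox6a1 differed by 0.80 ± 0.07, adjusted p = 3.1e-08 and Cox7a2 by 0.77 ± 0.07, adjusted p = 8.3e-08. The gene that was lower was Cox7a2l, at 439 and 457 CPM and 355 and 359 CPM (-0.34 ± 0.07, adjusted p = 0.0014), a call lost at the 10% mitochondrial limit (adjusted p = 0.13) and after thinning (adjusted p = 0.052). At that limit 58 nuclear genes were called higher and 1 mitochondrial gene was, with a median of 0.010 over the 13. After thinning 7 of the 13 mitochondrial genes were called higher. Markers of the ureteric epithelium list stood at 1307 and 921 CPM in distal tubule-like and 47.4 and 33.8 CPM in loop of Henle-like cells, with none of the 8 at 0 in either, and their part in the result was not tested. In ureteric epithelium-like cells themselves the nuclear share was lower than in both, as given above. That share is pooled over the whole type, so it does not describe the cells that carried these markers here.

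Set directly against each other, proximal tubule-like and loop of Henle-like cells had the chain at nearly the same level but differed in single genes. Of the 89 nuclear genes tested 19 were higher and 13 lower in proximal tubule-like cells, where 48.1% of all genes were called, 23.9% as higher and 24.2% as lower, and the median log2 fold change was 0.028 against -0.015 over all genes. Of the mitochondrial genes 7 were higher, with a median of 0.22; 6 of those belonged to complex I. After thinning 1 mitochondrial gene was called higher and the median over the mitochondrial genes was 0.0033; without the block 4 were, and with clusters 3 were higher and 1 lower. The nuclear subunits of complex I gave 12 higher and none lower, while complexes III and V gave 1 higher and 7 lower. Ndufa6, an accessory subunit of complex I, stood at 543 and 610 CPM in proximal tubule-like and 368 and 346 CPM in loop of Henle-like cells (0.85 ± 0.07, adjusted p = 7.4e-09), and Ndufv3 differed by 0.77 ± 0.07, adjusted p = 1.4e-08. Cox7a1 differed by 1.05 ± 0.25, adjusted p = 0.0015, a call lost after thinning (0.42, adjusted p = 0.72).

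Assembly factors of complex I went both ways between these segments. Ndufaf6 stood at 43.2 and 42.0 CPM in proximal tubule-like and 26.1 and 26.1 CPM in loop of Henle-like cells (0.86 ± 0.10, adjusted p = 6.8e-07). Ndufaf5, which modifies the complex I subunit Ndufs7, stood at 10.4 and 10.6 CPM and 30.7 and 29.6 CPM (-1.37 ± 0.12, adjusted p = 1.3e-08). The types did not overlap in either gene. Ndufaf4 (-0.44 ± 0.11, adjusted p = 0.0018) and Atp5sl (-0.41 ± 0.11, adjusted p = 0.0056) were lower in proximal tubule-like cells; both calls were lost after thinning, with adjusted p of 0.1 and 0.065, and that of Ndufaf4 also without the block (adjusted p = 0.055). Cox6b2 was at 39.9 and 46.2 CPM in loop of Henle-like and 14.6 and 14.7 CPM in proximal tubule-like cells (-1.39 ± 0.11, adjusted p = 1.0e-09). Counts here depended on the processing: with clusters in place of marker gates, 11 nuclear genes were higher and 26 lower, at a mitochondrial limit of 10% 29 were higher and 5 lower, and after thinning 7 were higher and 4 lower.

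**Figure D3:**
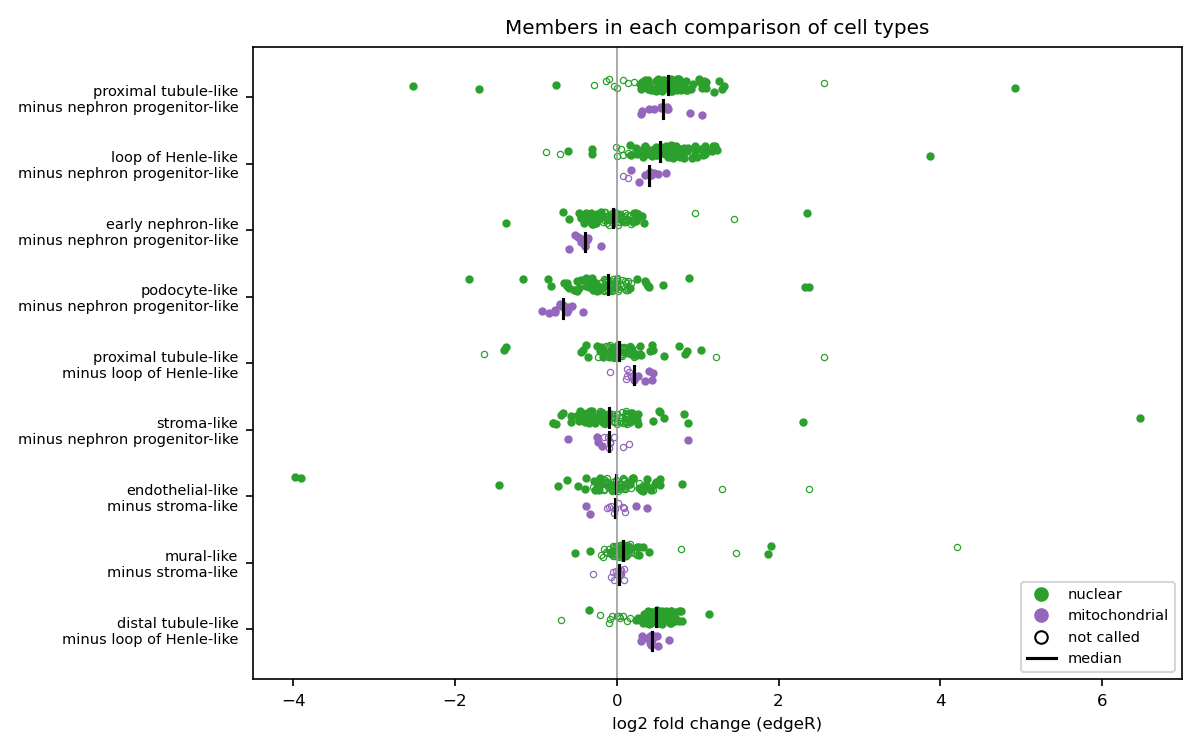
Log2 fold change (edgeR) of each tested nuclear (green) and mitochondrial (purple) gene in the 9 comparisons; filled points passed an adjusted p of 0.05, open points did not, and black bars are medians. The mass of points lies right of 0 in the proximal tubule, loop of Henle and distal tubule rows, with nuclear medians of 0.64, 0.53 and 0.48, and the mitochondrial points lie left of 0 in the early nephron and podocyte rows.

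In early nephron-like cells, the first epithelial derivatives of the progenitors, the mitochondrial genes were lower while the nuclear genes showed no common direction. All 13 mitochondrial genes were lower than in nephron progenitor-like cells, with a median log2 fold change of -0.40. Among the nuclear genes 9 were higher and 26 lower, where 45.4% of all genes were called, 19.9% as higher and 25.5% as lower, and the nuclear median of -0.047 lay beside -0.071 over all genes. The nuclear split depended on the scaling: with DESeq2 size factors in the same test, 20 were higher and 16 lower, with a median of 0.05, and the mitochondrial median was -0.30. Cox4i2 was the gene that was higher by most, at 1.91 and 1.20 CPM in nephron progenitor-like and 9.71 and 8.27 CPM in early nephron-like cells (2.35 ± 0.31, adjusted p = 4.0e-06). Cox5a, a subunit of complex IV, differed by 0.34 ± 0.08, adjusted p = 0.0019, Ndufa12 by 0.31 ± 0.07, adjusted p = 0.0019 and Ndufaf2, a paralog of Ndufa12 that acts in complex I assembly, by 0.26 ± 0.09, adjusted p = 0.023; the last was -0.064 after thinning. Cox6b2 was lower, at 22.6 and 19.6 CPM (-1.37 ± 0.09, adjusted p = 3.6e-10), as were Cox7a2l (-0.67 ± 0.07, adjusted p = 1.5e-07) and Uqcrh, the hinge subunit of complex III (-0.59 ± 0.06, adjusted p = 2.5e-07). Atp5s, from 122 and 81 UMIs in early nephron-like cells, was lower (-0.47 ± 0.18, adjusted p = 0.038), and in 9 of 12 alternatives the adjusted p was above 0.05. Markers of the mural list stood at 139 and 129 CPM in early nephron-like and 43.6 and 30.4 CPM in nephron progenitor-like cells, and their part in the Cox4i2 difference was not tested.

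Podocyte-like cells showed the largest mitochondrial deficit of the comparisons made. All 13 mitochondrial genes were lower than in nephron progenitor-like cells, with log2 fold changes from -0.92 to -0.41 and a median of -0.67. Of 89 nuclear genes 11 were higher and 33 lower, where 59.2% of all genes were called, 30% as higher and 29.2% as lower, and the median was -0.11 against 0.004 over all genes. DESeq2's Wald test gave 19 nuclear genes higher and 32 lower. The nuclear subunits of complex I were split, with 7 higher and 9 lower of 36. Of the 7 assembly factors of complex I, 6 were lower and 1 was higher. Ndufaf5 stood at 14.1 and 11.6 CPM in nephron progenitor-like and 6.01 and 6.61 CPM in podocyte-like cells (-1.16 ± 0.17, adjusted p = 5.1e-06), Ndufaf2 differed by -0.85 ± 0.11, adjusted p = 8.5e-07 and Ndufaf6 by -0.82 ± 0.13, adjusted p = 2.2e-05. The exception, Ndufaf3, stood at 20.8 and 16.7 CPM and 37.3 and 38.8 CPM (0.89 ± 0.10, adjusted p = 3.5e-07). The libraries of the types did not overlap in these genes, and thinning ended the call of Ndufaf6 (adjusted p = 0.14).

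Among the other genes named in podocyte-like cells, Cox4i2 stood at 7.83 and 9.83 CPM (2.37 ± 0.34, adjusted p = 5.3e-06) and Ndufa1 at 135 and 159 CPM (0.57 ± 0.10, adjusted p = 4.1e-05). Cox7a1 stood at 1.68 and 4.07 CPM, from 12 and 24 UMIs (2.32 ± 0.45, adjusted p = 1.8e-04). The difference was 2.48 without library 1 and 1.29 without library 2, and it lost its call after thinning (adjusted p = 0.28). Cox6b2 was lower, at 15.2 and 14.6 CPM (-1.83 ± 0.11, adjusted p = 4.1e-11). Podocyte-like cells were shallower than nephron progenitor-like cells, with medians of 7506 and 8378 UMIs. After thinning to the same depth the mitochondrial median was -0.62. Markers of the mural list stood at 434 and 575 CPM and of the stroma list at 936 and 1037 CPM in podocyte-like cells, against 43.6 and 30.4 and 109.9 and 107 CPM in nephron progenitor-like cells, and their part in the Cox4i2 value was not tested.

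Stroma-like cells, a type of the Foxd1 lineage, in which Foxd1Cre acts, had the chain at about the level of nephron progenitor-like cells. They differed from those cells in the levels of several isoform genes. The comparison sets the targeted lineage against another, so cell type and deletion cannot be told apart in it. Among 89 nuclear genes 16 were higher and 32 lower, where 53.6% of all genes were called, 26.8% as higher and 26.7% as lower. Of the mitochondrial genes 1 was higher, mt-Nd6 (0.88 ± 0.11, adjusted p = 9.8e-07), and 4 were lower, mt-Co1, mt-Nd3, mt-Nd4 and mt-Nd5. The medians were -0.094 over the nuclear and -0.096 over the mitochondrial genes, against -0.010 over all genes. Ndufa4l2, a paralog of Ndufa4 known to respond to low oxygen, stood at 0.340 and 0.287 CPM in nephron progenitor-like cells, from 8 and 6 UMIs, and at 30.6 and 28.0 CPM in stroma-like cells, from 205 and 202 UMIs (6.47 ± 0.45, adjusted p = 2.9e-10), or 5.77 without library 1 and 5.75 without library 2. Cox4i2 stood at 7.16 and 8.44 CPM (2.30 ± 0.34, adjusted p = 1.2e-05) and Cox6b2 at 89.6 and 87.9 CPM (0.83 ± 0.09, adjusted p = 1.9e-07). Ndufv3 stood at 163 and 160.3 CPM (0.88 ± 0.07, adjusted p = 2.9e-09), above the 86.0 and 85.3 CPM of nephron progenitor-like cells. In none of these did the types overlap. Cox7a2l (-0.79 ± 0.07, adjusted p = 1.2e-08), Atp5g2 (-0.68 ± 0.08, adjusted p = 2.7e-07), Atp5sl (-0.75 ± 0.14, adjusted p = 1.4e-04) and Atp5s (-0.79 ± 0.22, adjusted p = 0.005) were lower, and Atp5s lost its call after thinning (adjusted p = 0.5). In complex III, 5 of 8 nuclear genes were lower and 1 was higher. The nuclear split depended on the test: DESeq2's Wald test gave 30 higher and 29 lower, and after thinning 7 were higher and 23 lower.

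Mural-like cells, the smooth muscle, renin and pericyte group that surrounds vessels, differed from stroma-like cells in few genes, in the chain and over all genes alike. Both are types of the Foxd1 lineage, so the comparison does not set targeted against untargeted cells. Of the 89 nuclear genes tested 7 were higher and 2 lower and no mitochondrial gene was called, where 8.03% of all genes were called, 4.93% as higher and 3.10% as lower. The 10.1% of nuclear genes called was near that share of all genes. The medians were 0.072 over the nuclear and 0.030 over the mitochondrial genes, against -0.050 over all genes. At an unadjusted p under 0.05 by edgeR's test 1 mitochondrial gene was lower, and DESeq2's Wald test called 0 of the 13 in either direction. Ndufa4l2 stood at 30.6 and 28.0 CPM in stroma-like and 104 and 118 CPM in mural-like cells (1.86 ± 0.30, adjusted p = 4.0e-04). Cox4i2 stood at 7.16 and 8.44 CPM and 32.5 and 29.0 CPM (1.90 ± 0.33, adjusted p = 6.7e-04). Cox6a1 was higher by 0.39 ± 0.07, adjusted p = 0.0016 and Uqcrq by 0.33 ± 0.09, adjusted p = 0.029, whereas Cox6b2 (-0.51 ± 0.12, adjusted p = 0.0074) and Ndufv3 (-0.33 ± 0.08, adjusted p = 0.015) were lower. With clusters in place of marker gates the values were different: Ndufa4l2 differed by 0.27, adjusted p = 0.69, Cox4i2 by 0.92, adjusted p = 0.028, and 13 nuclear and 5 mitochondrial genes were called lower. Thinning ended the calls of Cox6a1, Cox6b2 and Ndufv3 (adjusted p = 0.29, 0.78 and 0.51), and Uqcrq missed the threshold in 6 of 12 alternatives. Markers of the stroma list stood at 3169.6 and 4463 CPM in mural-like and 10409 and 9029.9 CPM in stroma-like cells, and those of the mural list at 9199.5 and 11679 and 1226 and 957 CPM; their part in the result was not tested.

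Endothelial-like cells and stroma-like cells had the chain at nearly the same median level, with 17 nuclear genes higher and 16 lower of 89, 2 mitochondrial genes higher (mt-Atp6 and mt-Co1) and 2 lower (mt-Nd4l and mt-Nd5). Of all genes 48.7% were called, 25.2% as higher and 23.5% as lower. The medians were -0.009 and -0.019 over the nuclear and mitochondrial genes and 0.001 over all genes. Stroma-like cells are of the targeted lineage, so cell type and deletion cannot be told apart in this comparison either. The isoform genes that were higher in stroma-like than in nephron progenitor-like cells were lower in endothelial-like than in stroma-like cells. Cox6b2 stood at 5.90 and 5.39 CPM against 89.6 and 87.9 CPM (-3.91 ± 0.13, adjusted p = 1.4e-14), the lowest level of this gene in any type in either library. Ndufa4l2 differed by -3.98 ± 0.40, adjusted p = 6.3e-08. Its level in endothelial-like cells was 3.09 and 0.146 CPM, from 33 UMIs in 10 cells of library 1 and 1 UMI in library 2, and the difference was -6.25 without library 1 and -3.15 without library 2. Cox4i2 differed by -1.45 ± 0.36, adjusted p = 0.0024, or -2.22 without library 1 and -0.83 without library 2. Ndufaf2 was lower (-0.73 ± 0.10, adjusted p = 5.1e-06). Ndufa8, an accessory subunit of complex I, was higher, at 204 and 219.7 CPM in stroma-like and 358 and 355 CPM in endothelial-like cells (0.80 ± 0.07, adjusted p = 3.9e-09), as were Uqcrq (0.54 ± 0.08, adjusted p = 2.2e-05), Ndufaf3 (0.53 ± 0.12, adjusted p = 7.3e-04) and Cox6a1 (0.48 ± 0.07, adjusted p = 7.3e-06). The call of Ndufaf3 was lost after thinning (adjusted p = 0.23).

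Several subunits of complexes IV and V are made in alternative forms from different genes, and the share of each form was taken within its family in every type. Ndufa4l2 (ENSMUSG00000040280) lies at chr10:127509274-127517154, Cox4i2 (ENSMUSG00000009876) lies at chr2:152753916-152765039, Cox6b2 (ENSMUSG00000051811) lies at chr7:4751792-4753094 and Cox7a1 (ENSMUSG00000074218) lies at chr7:30184171-30186030 (build mm10; positions from RefSeq's annotation of GRCm38.p6). Ndufa4l2 overlaps Shmt2 and Cox4i2 overlaps Bcl2l1 in that annotation. Whether the counting used strand, and how it treated reads shared with paralogs or processed copies, is not given in the sources used here, so the counts of such genes are uncertain. Different genes may be captured unequally at their 3' ends, so a share was compared between types and not read as the ratio of the proteins.

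Ndufa4l2 was found chiefly in the mesenchymal types. Of the UMIs of Ndufa4 and Ndufa4l2 together, it made up 14.4% (exact 95% binomial interval 12.9 to 16.0%) and 17.2% (exact 95% binomial interval 14.7 to 20.01%) in mural-like cells of libraries 1 and 2, and 5.005% and 4.52% in stroma-like cells. Erythroid-like cells held 15.3% and 8.02%, from 48 of 314 and 19 of 237 UMIs. In each of the other 9 types it was at most 0.479% in both libraries. Its RNA was unevenly spread among mural-like cells: 76 of 232 and 32 of 107 cells had a UMI, at a median depth of 10303 and 10585 UMIs per cell, and a single cell held up to 48 and 20. In stroma-like cells 22.2% and 19.2% of cells had a UMI, at most 5 and 4 in a cell. Nephron progenitor-like cells, at median depths of 15118 and 14179 against 9028.5 and 9187 UMIs in stroma-like cells, had one in 0.551% and 0.524% of cells, and the gene stood at 7.85 and 7.26 CPM in free RNA.

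Cox4i2 was a minor form of its family everywhere, but the types differed. It made up 2.54% and 2.33% of the UMIs of Cox4i1 and Cox4i2 in mural-like cells, 0.804% and 0.653% in early nephron-like, 0.725% and 0.854% in podocyte-like and 0.641% and 0.745% in stroma-like cells. Its share in proximal tubule-like cells was 0.0253% and 0.00410%, from 7 and 1 UMIs. The mural-like intervals lay above those of every other type in both libraries. In library 1, 1 mural-like cell held 25 of the type's 91 UMIs of Cox4i2, and the part of that cell in the share was not tested.

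Cox7a1 was highest in proximal tubule-like cells, as a small share beside Cox7a2. It made up 2.35% (exact 95% binomial interval 2.04 to 2.70%) and 3.42% (exact 95% binomial interval 3.02 to 3.85%) of the pair in proximal tubule-like cells. Distal tubule-like cells held 1.16% and 1.05%, loop of Henle-like cells 1.12% and 1.55% and ureteric epithelium-like cells 1.93% and 1.22%, in an order that was not the same in both libraries. Nephron progenitor-like cells held 0.145% and 0.137% and stroma-like cells 0.0907% and 0.117%. Immune-like cells held 1.65% and 2.004%, from 12 and 10 UMIs, above the loop of Henle-like and distal tubule-like shares in both libraries.

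Cox6b2 followed neither pattern. It made up 50.6% (exact 95% binomial interval 46.4 to 54.9%) and 55.7% (exact 95% binomial interval 50.8 to 60.5%) of the UMIs of Cox6b1 and Cox6b2 in erythroid-like cells, from 277 and 236 UMIs. Stroma-like cells held 19.5% and 17.9%, mural-like cells 13.1% and 12.1% and nephron progenitor-like cells 10.8% and 9.94%. In endothelial-like cells the share was 1.43% and 1.29%. The level of Cox6b2 in erythroid-like cells, 96.5 and 118 CPM, was the highest of the 12 types although globins take most of their UMIs, and free RNA held 20.9 and 36.3 CPM. Erythroid-like cells entered the fit but no comparison of the design, so this level has no test. The muscle forms were near the limit of detection: Cox6a2 had 25 and 13 UMIs in immune-like cells, of which 24 and 8 came from a single cell of each library, and at most 2 UMIs in any other type. Cox8b had 5 and 4 UMIs in mural-like cells and at most 2 elsewhere.

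**Figure D4:**
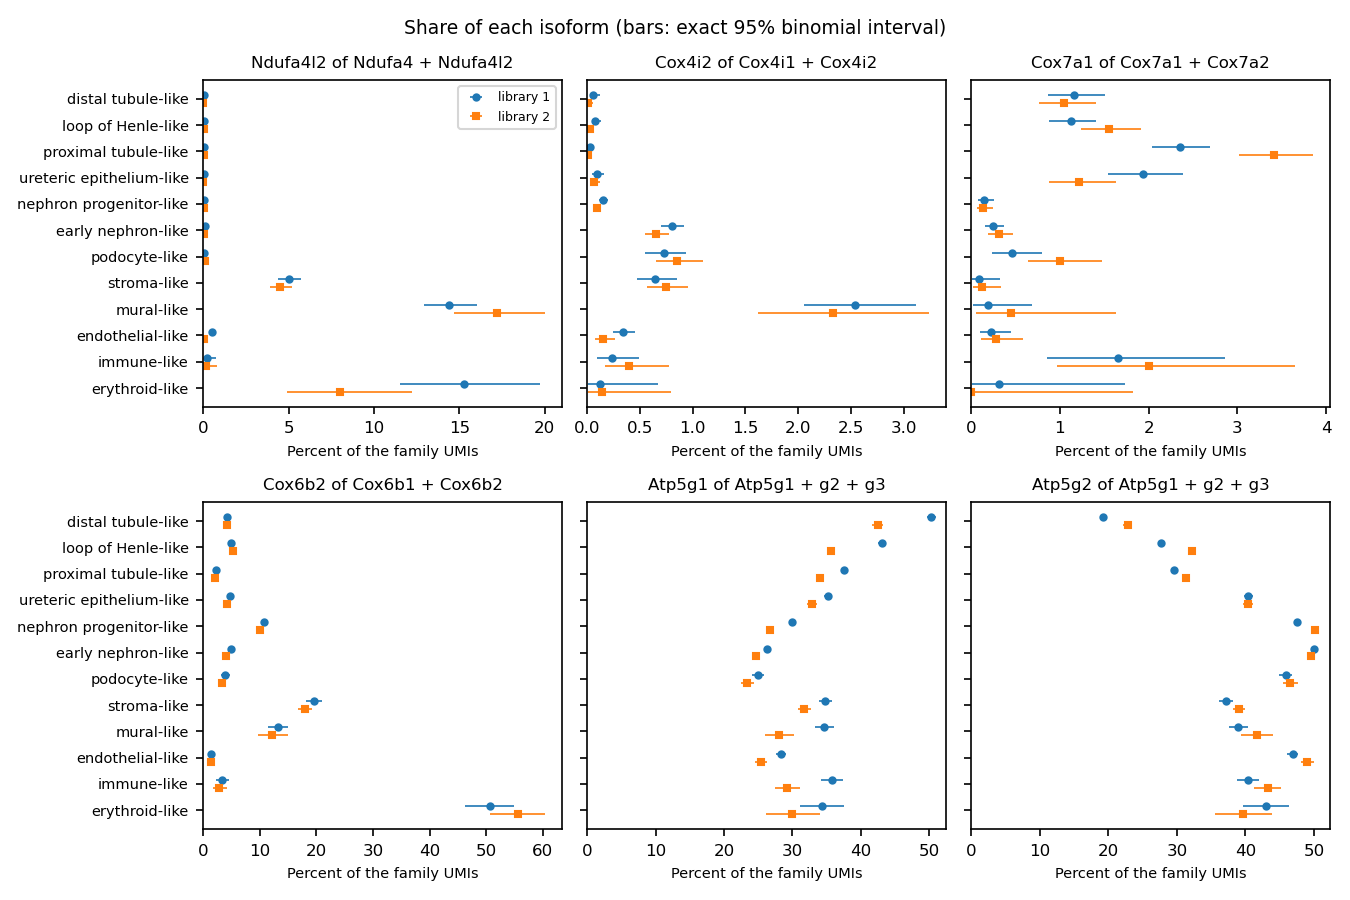
Share of an isoform in its family's UMIs, in percent, by type and library; bars are exact 95% binomial intervals, which cover counting error only. Ndufa4l2 and Cox4i2 are highest in the mural-like row among the renal types, Cox7a1 in the proximal tubule-like row and Cox6b2 in the erythroid-like and stroma-like rows, while Atp5g1 and Atp5g2 trade places between progenitor and distal tubule rows.

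Atp5g1, Atp5g2 and Atp5g3 encode the same mature c subunit with different import sequences, and their shares shifted along the nephron. Atp5g2 made up 47.5% and 50.2% of the family in nephron progenitor-like cells, 29.6% and 31.3% in proximal tubule-like, 27.7% and 32.2% in loop of Henle-like and 19.3% and 22.8% in distal tubule-like cells. Atp5g1 made up 29.95% and 26.8% in nephron progenitor-like and 50.4% and 42.5% in distal tubule-like cells, and Atp5g3 22.5% and 23.0% in the former and 30.3% and 34.7% in the latter. In level, Atp5g2 stood at 862 and 849 CPM in nephron progenitor-like and 918 and 948 CPM in distal tubule-like cells, whereas Atp5g1 stood at 544 and 453 CPM in the former and 2396 and 1765 CPM in the latter. Atp5g1 was lower in library 2 than in library 1 in all 12 types, with a median ratio of 1.19 (library 1 over library 2) against 0.995 for Atp5g2 and 0.970 for Atp5g3. Within each library the distal tubule-like share of Atp5g1 lay above, and that of Atp5g2 below, those of all other types.

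Of the 13 mitochondrial genes, which are transcribed together as long precursors, 12 were highest in distal tubule-like cells in both libraries, and all 13 were lowest in erythroid-like cells. mt-Atp6 of complex V stood at 23242 and 25438 CPM in distal tubule-like, 11603 and 12805 CPM in nephron progenitor-like and 8646 and 8766 CPM in podocyte-like cells. mt-Co1 of complex IV stood at 13142 and 14909, 6860.3 and 7441 and 4901 and 5357 CPM in the same types, and mt-Cytb of complex III at 12956 and 13562, 6505 and 6781 and 4900.2 and 4954 CPM. Library 2 was above library 1 in each of these pairs. In proximal tubule-like cells mt-Nd1 stood at 6011 and 7023 CPM, above the 5307 and 5403 CPM of loop of Henle-like cells (0.44 ± 0.06, adjusted p = 7.6e-06; 0.28, adjusted p = 0.014 after thinning), whereas mt-Co1 stood at 8189 and 9337 CPM, below their 10385 and 10355 CPM without passing the test (-0.09 ± 0.07, adjusted p = 0.32). Against nephron progenitor-like cells, the log2 fold changes in proximal tubule-like cells ran from 0.30 to 1.05.

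mt-Nd6, the gene of this set that lies on the opposite strand of the mitochondrial genome, was the exception. It stood at 132 and 215 CPM in distal tubule-like, 119.7 and 166 CPM in proximal tubule-like, 166 and 196 CPM in endothelial-like and 162 and 189.5 CPM in stroma-like cells, and at 81.8 and 106 CPM in nephron progenitor-like cells. In stroma-like cells it was higher than in nephron progenitor-like cells, as given above, while mt-Co1 was lower (-0.60 ± 0.07, adjusted p = 6.2e-07). Free RNA held 275 and 275 CPM, above all 12 types in both libraries, and the part of free RNA in these differences was not tested.

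Complex II, without a mitochondrially encoded subunit, was also highest in distal tubule-like cells, but its sum was alike in proximal tubule-like (745 and 715 CPM) and loop of Henle-like cells (754 and 705 CPM). Between those segments Sdhc (0.30 ± 0.07, adjusted p = 0.0019) and Sdhd (0.25 ± 0.08, adjusted p = 0.015) were higher in proximal tubule-like cells, and Sdha (-0.03 ± 0.08, adjusted p = 0.79) and Sdhb (0.16 ± 0.08, adjusted p = 0.12) did not pass the test. Sdha, its flavoprotein, stood at 117 and 119 CPM in nephron progenitor-like, 180 and 189 CPM in proximal tubule-like, 208 and 212 CPM in loop of Henle-like and 322 and 349.9 CPM in distal tubule-like cells. Sdhb, its iron-sulfur subunit, stood at 152 and 129.6 CPM in nephron progenitor-like and 372 and 342 CPM in distal tubule-like cells. The types did not overlap. The membrane anchors Sdhc and Sdhd were higher in proximal tubule-like than in nephron progenitor-like cells (0.79 ± 0.07, adjusted p = 8.1e-09, and 1.03 ± 0.08, adjusted p = 9.0e-10, in that order). In podocyte-like cells Sdhb was lower than in nephron progenitor-like cells (-0.59 ± 0.09, adjusted p = 8.6e-06), and the other 3 genes of complex II did not pass the test.

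Genes of neighbouring pathways were followed in lists drawn up with the members. Beside their counts stand the shares of all genes called, as given above: 67.4% in proximal tubule-like, 61.5% in loop of Henle-like, 45.4% in early nephron-like, 59.2% in podocyte-like and 53.6% in stroma-like against nephron progenitor-like cells, and 23.6% in distal tubule-like against loop of Henle-like cells. In the tricarboxylic acid cycle, which feeds electrons to the chain, 16 of 17 genes were higher and 1 lower (median 0.68) in proximal tubule-like against nephron progenitor-like cells; medians are log2 fold changes over the genes tested. In loop of Henle-like cells 15 of 17 genes were higher and 1 lower (median 0.91), and between distal tubule-like and loop of Henle-like cells 17 of 17 genes were higher and 0 lower (median 0.48). The gene that was lower in both segments was Suclg2 (-0.24 ± 0.09, adjusted p = 0.018 and -0.49 ± 0.09, adjusted p = 5.9e-05). Dlst (1.58 ± 0.09, adjusted p = 7.1e-12) and Suclg1 (1.44 ± 0.07, adjusted p = 2.9e-13) differed most in proximal tubule-like cells, and Idh3a (1.89 ± 0.11, adjusted p = 8.1e-12) and Ogdh (1.88 ± 0.10, adjusted p = 4.1e-12) in loop of Henle-like cells. Cs, citrate synthase, stood at 45.5 and 44.5 CPM in nephron progenitor-like, 64.3 and 59.7 CPM in proximal tubule-like and 136 and 125 CPM in loop of Henle-like cells, and differed between the segments by -0.91 ± 0.08, adjusted p = 7.6e-09. In early nephron-like cells 2 of 17 genes were higher and 4 lower (median -0.041), in podocyte-like cells 4 of 17 genes were higher and 5 lower (median -0.097), near the share of all genes called, and in stroma-like cells 4 of 17 genes were higher and 9 lower (median -0.20). Idh2, a mitochondrial isocitrate dehydrogenase, was higher in podocyte-like cells (0.98 ± 0.12, adjusted p = 4.7e-07), and Pdhb of the pyruvate dehydrogenase complex was lower in stroma-like cells (-0.79 ± 0.09, adjusted p = 5.2e-07).

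Assembly factors of complexes II to V were less uniform. In proximal tubule-like against nephron progenitor-like cells 16 of 25 genes were higher and 2 lower (median 0.37), where 32.9% of all genes were called higher, with Coa6 (1.38 ± 0.09, adjusted p = 3.0e-11) and Coa3 (1.21 ± 0.08, adjusted p = 5.4e-11), both of complex IV assembly, differing most. In loop of Henle-like cells 12 of 25 genes were higher and 0 lower (median 0.27), and in distal tubule-like against loop of Henle-like cells 6 of 25 genes were higher and 2 lower (median 0.080). In podocyte-like cells 9 of 25 genes were higher and 5 lower (median 0.19), near the 59.2% of all genes called, among them Cox17, a copper chaperone (0.89 ± 0.09, adjusted p = 2.2e-08), and Sco2 (-1.23 ± 0.17, adjusted p = 2.8e-06). Of a list of 7 genes, Cyc1, Cycs and the complex I assembly factors Acad9, Ecsit, Foxred1, Timmdc1 and Tmem126b, 5 were higher in proximal tubule-like, 4 in loop of Henle-like and 2 in early nephron-like than in nephron progenitor-like cells, and none was lower. Cyc1, the cytochrome subunit of complex III, and Cycs, cytochrome c, differed by 1.42 ± 0.08, adjusted p = 7.5e-12 and 1.42 ± 0.09, adjusted p = 1.0e-10 in loop of Henle-like cells. Cycs stood at 114 and 96.1 CPM in nephron progenitor-like and 618 and 534 CPM in distal tubule-like cells.

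Among 15 tested genes of mitochondrial transcription and its regulators a few members differed strongly. Against nephron progenitor-like cells, the list as a whole did not follow the chain in proximal tubule-like and loop of Henle-like cells. In proximal tubule-like against nephron progenitor-like cells 4 of 15 genes were higher and 4 lower (median -0.056), and in loop of Henle-like cells 5 of 15 genes were higher and 3 lower (median 0.073), both below the shares of all genes called, 67.4% and 61.5%. In distal tubule-like against loop of Henle-like cells 5 of 15 were higher and 1 lower (median 0.11), where 11.6% of all genes were called higher. In stroma-like against nephron progenitor-like cells 1 of 15 was higher and 7 lower (median -0.24), near the 53.6% of all genes called. Ppargc1a, the coactivator best known for raising mitochondrial gene expression, stood at 3.74 and 4.35 CPM in nephron progenitor-like, 12.3 and 12.1 in early nephron-like, 71.7 and 69.3 in proximal tubule-like, 172 and 139 in loop of Henle-like and 331 and 335 CPM in distal tubule-like cells. The tubule types did not overlap in it, and it differed by 4.15 ± 0.13, adjusted p = 5.5e-16 between proximal tubule-like and nephron progenitor-like cells and by 1.08 ± 0.10, adjusted p = 8.1e-08 between distal tubule-like and loop of Henle-like cells. Esrrg, a nuclear receptor that works with it, stood at 1.66 and 1.15 CPM in nephron progenitor-like and 23.5 and 28.1 CPM in proximal tubule-like cells (4.21 ± 0.23, adjusted p = 3.6e-12). Esrrb, its relative, stood at 7.16 and 4.197 CPM in loop of Henle-like and 3.70 and 4.05 CPM in distal tubule-like cells and at 0.3001 and 0.213 CPM in proximal tubule-like cells. Ppargc1a was also higher in podocyte-like than in nephron progenitor-like cells (1.59 ± 0.17, adjusted p = 1.6e-07), where Pprc1, a further coactivator of that family, was lower (-2.01 ± 0.16, adjusted p = 2.1e-09).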

How the data were processed

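Both libraries were made by 10x 3' single-cell sequencing of newborn kidney. The authors deposited unfiltered UMI counts per gene and barcode; the file header names Cell Ranger 4, whereas the submitters' processing notes name Cell Ranger 6.0.1 and mm10. Whether intronic reads were counted is not given in the sources used here. Barcodes under 2000 UMIs or over 20% mitochondrial UMIs were left out, and doublets were handled by the marker gates alone, with Scrublet as an alternative. A cell took the type with the highest mean of marker z-scores (each capped at 5) of log counts per 10000, if it led by 0.3 and had 2 markers; the rule was set after marker levels were seen. Neural-like cells (3) were left out.

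UMIs were summed per library and type (12 types, 24 sums) and tested in one fit with edgeR 4.0.16 (R 4.3.3): TMM, filterByExpr, library as a block since both types compared come from the same libraries, 11 residual degrees of freedom, Benjamini-Hochberg adjustment over 15625 genes, threshold 0.05. Types shared each library, so the block pairs them by origin. On simulated counts for proximal tubule-like against nephron progenitor-like cells (15574 genes), 44 of 99 genes changed by 0.5 on the log2 scale and 82 of 98 changed by 1 were recovered, with 7 false calls among 15377 unchanged genes. The simulation gave the libraries of a type the same gene proportions and every gene the same spread beyond counting error. Apart from the changed genes, both types had the same profile. The data differ in these respects, so the rates do not carry over to them. Other tools were scanpy 1.11.5, DESeq2 1.42.0 and scipy 1.17.1.

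Named genes are the 13 mitochondrial members, the Sdh genes, fixed isoform families, and per comparison up to 4 nuclear members with the largest change in each direction past the threshold and alike in both libraries, plus 2 per other list. Other genes were named after their values were seen. The members and lists were chosen with earlier results of these data known. Alternatives were Leiden clusters, a 10% and no mitochondrial limit, a minimum of 5000 UMIs, Scrublet, thinning to 2000 UMIs, DESeq2 scaling or test, mitochondrial UMIs left out, no low-count filter, no block, a lead of 0.5 and leaving out a library. The lead of 0.5, the absent limit and the distal tubule-like comparison were added after the data were seen. RefSeq positions were found for 92 members by gene symbol or a listed synonym. No sequences were used.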

Additional observations from a re-analysis of the deposited data

How the results depend on the processing

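Of 2321 values of named genes under the alternatives, 2153 kept their direction and side of the threshold, 156 lost their call and 12 changed sign; of 414 counts of called members, 350 stayed within 1.5 times. The higher nuclear counts of proximal tubule-like and loop of Henle-like against nephron progenitor-like cells, and of distal tubule-like against loop of Henle-like cells, stayed within that factor under every alternative run, as did the lower mitochondrial counts of early nephron-like and podocyte-like cells. In what follows, comparisons are named by their first type, with nephron progenitor-like as the second unless stated. Levels per type moved by more than the spread between the libraries in 62 of 180 values; over the alternatives the mitochondrial share ran from 7.05 to 11.9% in distal tubule-like, 6.47 to 9.26% in loop of Henle-like, 7.0 to 9.19% in proximal tubule-like and 5.86 to 6.13% in nephron progenitor-like cells, and the nuclear share from 5.07 to 6.57% in distal tubule-like and 2.41 to 2.57% in nephron progenitor-like cells. With Leiden clusters, 5 nuclear genes were lower in proximal tubule-like cells, 14 higher and 15 lower in early nephron-like cells, and 2 mitochondrial genes lower in stroma-like cells. Clusters also gave 11 nuclear genes higher, 26 lower, 3 mitochondrial higher and 1 lower in proximal tubule-like against loop of Henle-like cells. Against stroma-like cells, clusters gave 11 nuclear higher, 25 lower and 1 mitochondrial higher in endothelial-like cells, and 13 nuclear lower, 1 mitochondrial higher and 5 lower in mural-like cells. At a mitochondrial limit of 10%, 1 mitochondrial gene was higher and 1 lower in loop of Henle-like cells, where mt-Nd2 (-0.23), mt-Atp6 (-0.0019) and mt-Nd6 (-0.27) changed sign. In distal tubule-like against loop of Henle-like cells that limit left 1 mitochondrial gene higher and 0 nuclear genes lower, and mt-Nd1 (-0.043), mt-Nd2 (-0.0027), mt-Co3 (-0.010), mt-Nd3 (-0.14), mt-Nd4 (-0.014) and mt-Nd6 (-0.33) changed sign. It also gave 29 nuclear higher and 5 lower between proximal tubule-like and loop of Henle-like cells, 1 mitochondrial higher in endothelial-like and 3 nuclear higher in mural-like against stroma-like cells. This limit removes cells by the quantity tested. With no limit, 11 mitochondrial genes were higher in proximal tubule-like against loop of Henle-like and 1 in endothelial-like against stroma-like cells. Thinned to 2000 UMIs, which lowers the depth, cells gave 1 nuclear gene lower in loop of Henle-like, 5 higher and 9 lower in early nephron-like, and 7 nuclear higher and 2 mitochondrial lower in stroma-like cells. Thinning gave 7 nuclear higher, 4 lower and 1 mitochondrial higher in proximal tubule-like against loop of Henle-like cells, and 0 nuclear lower and 7 mitochondrial higher in distal tubule-like against loop of Henle-like cells. Against stroma-like cells it gave 10 nuclear higher in endothelial-like and 2 higher and 0 lower in mural-like cells. Thinning turned Ndufaf1 in loop of Henle-like (0.019), Ndufaf2 in early nephron-like (-0.064) and mt-Nd6 in proximal tubule-like against loop of Henle-like cells (-0.018). With DESeq2 size factors, 20 nuclear genes were higher and 16 lower in early nephron-like cells, 2 mitochondrial higher and 2 lower in stroma-like, and 1 mitochondrial higher in endothelial-like against stroma-like cells. DESeq2's Wald test gave 31 nuclear higher and 16 lower in early nephron-like, 19 higher in podocyte-like, and 30 nuclear and 2 mitochondrial higher in stroma-like cells. Against stroma-like cells it gave 26 nuclear lower in endothelial-like and 14 higher in mural-like cells. Without mitochondrial UMIs, 17 nuclear genes were lower in early nephron-like and 8 in proximal tubule-like against loop of Henle-like cells. Without the low-count filter, 17 were lower in early nephron-like, 7 lower in proximal tubule-like against loop of Henle-like, and 3 higher in mural-like against stroma-like cells. Without the library as a replicate block, nuclear counts were 5 higher in early nephron-like, 10 higher in stroma-like, 5 lower in proximal tubule-like against loop of Henle-like, 10 lower in endothelial-like and 3 higher in mural-like against stroma-like cells. Without that block, mitochondrial counts were 2 lower in stroma-like, 4 higher in proximal tubule-like against loop of Henle-like and 1 higher in endothelial-like against stroma-like cells. With a lead of 0.5 in the gate, 9 nuclear genes were higher in stroma-like and 10 lower in endothelial-like against stroma-like cells. A minimum of 5000 UMIs and Scrublet moved no count beyond 1.5 times. Except where the construction of a setting is named above, the cause was not tested. Leaving out a library leaves no residual degrees of freedom, so counts were not run and fold changes have no test. Of 400 such values of named genes 14 moved by more than the spread between libraries, and none changed sign. The main fit draws on both libraries, so most values lie within that spread by construction. Genes named for the largest changes were required to have the same sign in both libraries. Neither count is therefore independent support. Depth limits the isoform genes most, since several rest on under 20 UMIs per library and type.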

Other observations

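Cox7b2, a form of subunit 7B of complex IV known from testis, did not pass the filter on low counts. It was highest in podocyte-like cells, at 1.82 and 1.02 CPM from 13 and 6 UMIs, and stood at 0.213 and 0.574 CPM in nephron progenitor-like cells from 5 and 12 UMIs. Cox8c, also known from testis, had at most 2 UMIs in any type and library.

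Ecsit, an assembly factor of complex I that also takes part in innate immune signalling, stood at 20.5 and 17.5 CPM in nephron progenitor-like, 53.6 and 44.6 CPM in proximal tubule-like and 35.5 and 29.9 CPM in loop of Henle-like cells, and differed between the tubule segments by 0.74 ± 0.09, adjusted p = 1.1e-06 (edgeR).

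Ppargc1a was also higher in mural-like than in stroma-like cells (1.54 ± 0.37, adjusted p = 0.011, edgeR), at 6.42 and 10.2 CPM against 2.39 and 2.63 CPM. Markers of the early nephron list stood at 241 and 493 CPM in mural-like and 113 and 118 CPM in stroma-like cells, and their part in this difference was not tested.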
